A study of Homo sapiens with 48 samples.

Results

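MYC, its dimerization partner MAX and 8 further genes of the same network were followed in AMO1 cells, a human multiple myeloma line derived from a plasmacytoma. The 10 members were the genes of the deposited count table, which holds 58302 genes, that carry the symbols MYC, MAX, MXD1, MXD3, MXD4, MXI1, MNT, MLX, MLXIP and MGA. All 10 passed the filter on low counts in each of the 4 clones. RNA sequencing covered 48 libraries in 16 groups of 3, described as biological triplicates grown in flasks. The cells carried shRNAs switched on by doxycycline (Dox, 0.2 µg/ml). Clones 1 and 3 of shIRE1 (genotype label IRE1 sh7,8,9) silenced ERN1, which encodes the endoplasmic reticulum stress sensor IRE1, and clones 1 and 18 of shXBP1 (genotype label XBP1 sh4,6,7) silenced the transcription factor gene XBP1. Each clone was sampled without treatment (0 h) and after 24, 48 and 72 h of Dox. Every group thus shared the parental line and a puromycin resistance vector with 3 shRNAs against 1 gene, each line is a single clone, and non-targeting controls were not analysed here, so that effects of Dox or of expressing any shRNA are contained in each change against 0 h.

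MYC is a transcription factor that binds DNA as a heterodimer with MAX, most strongly at the E-box CACGTG, and recruits histone acetyltransferases and elongation factors to genes of growth, nucleotide synthesis and ribosome production. The MXD proteins (MXD1, MXD3, MXD4 and MXI1, also known as MXD2) and MNT compete with MYC for MAX and for the same E-boxes, where they recruit SIN3 and histone deacetylases as repressors. MGA pairs with MAX inside a Polycomb complex, and MLX pairs with MXD1, MXD4 and MNT or with the glucose-sensing factor MLXIP (MondoA). In myeloma, rearrangement or overexpression of MYC is a common step of progression, and MYC is under control of the plasma cell regulator IRF4.

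The libraries held between 19177855 and 40767202 counts with a median of 30776246.5, so that 1 count was worth at most 0.0521 CPM, the depth-scaled count. Levels below are CPM scaled with the trimmed mean of M values (TMM), differences are log2 fold changes ± standard error from edgeR, and adjusted p-values come from its quasi-likelihood test with Benjamini-Hochberg adjustment over all genes tested, with 0.05 as the threshold. In each clone 9 of 9 Dox libraries lay below all 0 h libraries for the targeted gene. ERN1 at 72 h stood at 67.4% of 0 h in shIRE1 clone 1 and 29% in clone 3. These shares start from unlike levels: the lowest 0 h library held 151 CPM of ERN1 in clone 1 and 414 in clone 3. The highest Dox library held 130 and 148 CPM. XBP1 at 72 h stood at 20.4% and 22.3% of 0 h in shXBP1 clones 1 and 18. Plasma cell markers were high (SDC1 at a median of 7189 CPM), whereas PAX5, CD22, CD3D, CD2 and COL3A1 were at 0 in 42 to 47 of the 48 libraries; CD3E was the exception at 4.57 to 17.5 CPM, and the other 6 markers of B, myeloid and stromal cells did not exceed 2.31 CPM. In 2 groups a library stood apart. The third 72 h library of shXBP1 clone 18 correlated better with shXBP1 clone 1 at 72 h (r = 0.996) than with its own group (r = 0.979), and the first 24 h library of shIRE1 clone 3 correlated better with shIRE1 clone 1 at 24 h (r = 0.996) than with its own group (r = 0.993). Values of members without these libraries are given beside those that changed their call or moved the most, and list counts of their clones without them follow the lists.

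MYC was by far the most abundant member. Per kilobase of transcript, its median level over the 12 untreated libraries was 398 CPM per kb (range 259 to 523). MLX followed with 44.8 CPM per kb, MAX with 37.2, MXI1 with 20.1, MXD1 with 15.1, MGA with 12.9 and MLXIP with 12.2. MNT (5.81), MXD4 (5.13) and MXD3 (4.33 CPM per kb) were lowest. The ranges over the untreated libraries separated MYC from MLX and MLX from MAX, whereas the ranges of MXD1, MGA and MLXIP overlapped, as did those of MNT, MXD4 and MXD3. MXD3 was thinly covered, with 71 counts in its lowest library.

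**Figure D1:**
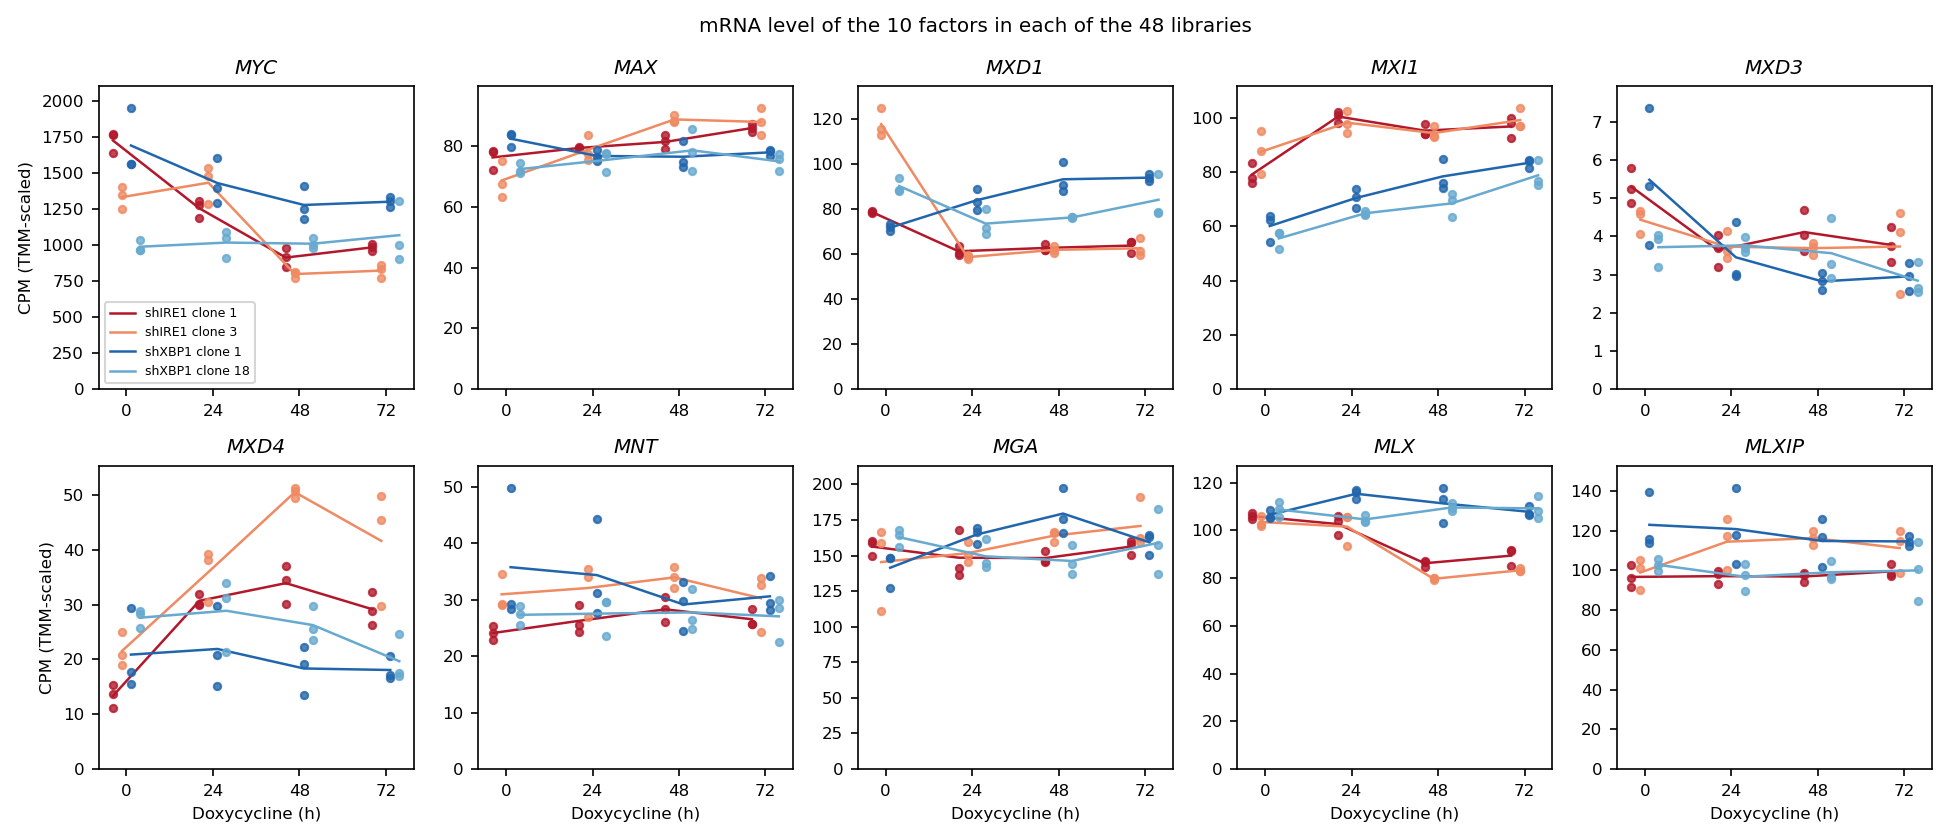
Level of each of the 10 members (TMM-scaled CPM, linear axis from 0, a scale per gene) against hours of Dox. Each point is 1 of the 48 libraries, colours mark the 4 clones and lines join the group means; points are shifted sideways by clone. MYC drops between 24 and 48 h in both shIRE1 clones and changes by 0.11 or less on the log2 scale in shXBP1 clone 18, and MXD4 is above its 0 h libraries at all 3 later times in both shIRE1 clones.

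More members passed the test in the shIRE1 clones and shXBP1 clone 1 than in shXBP1 clone 18, as did more of all genes. In shIRE1 clone 1, 5 of the 10 members were called at 24 h (61.4% of all genes tested were), 7 at 48 h (65.4%) and 7 at 72 h (63.6%). At 48 h, 3 of these 7 were higher (33.9% of all genes) and 4 lower (31.5%). Of the members in clone 3, 3 were called at 24 h (46.2%), 5 at 48 h (63.2%) and 5 at 72 h (60.2%). In shXBP1 clone 1, 2 were called at 24 h (26.7%), 5 at 48 h (32%) and 4 at 72 h (33.6%). Last, in shXBP1 clone 18, 0 members were called at 24 h (1.59%), 1 at 48 h (5.78%) and 1 at 72 h (9.96%). With shares of called genes this high, a call on a member is not particular to the network, and the size, timing and clones of each change carry the description.

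**Figure D2:**
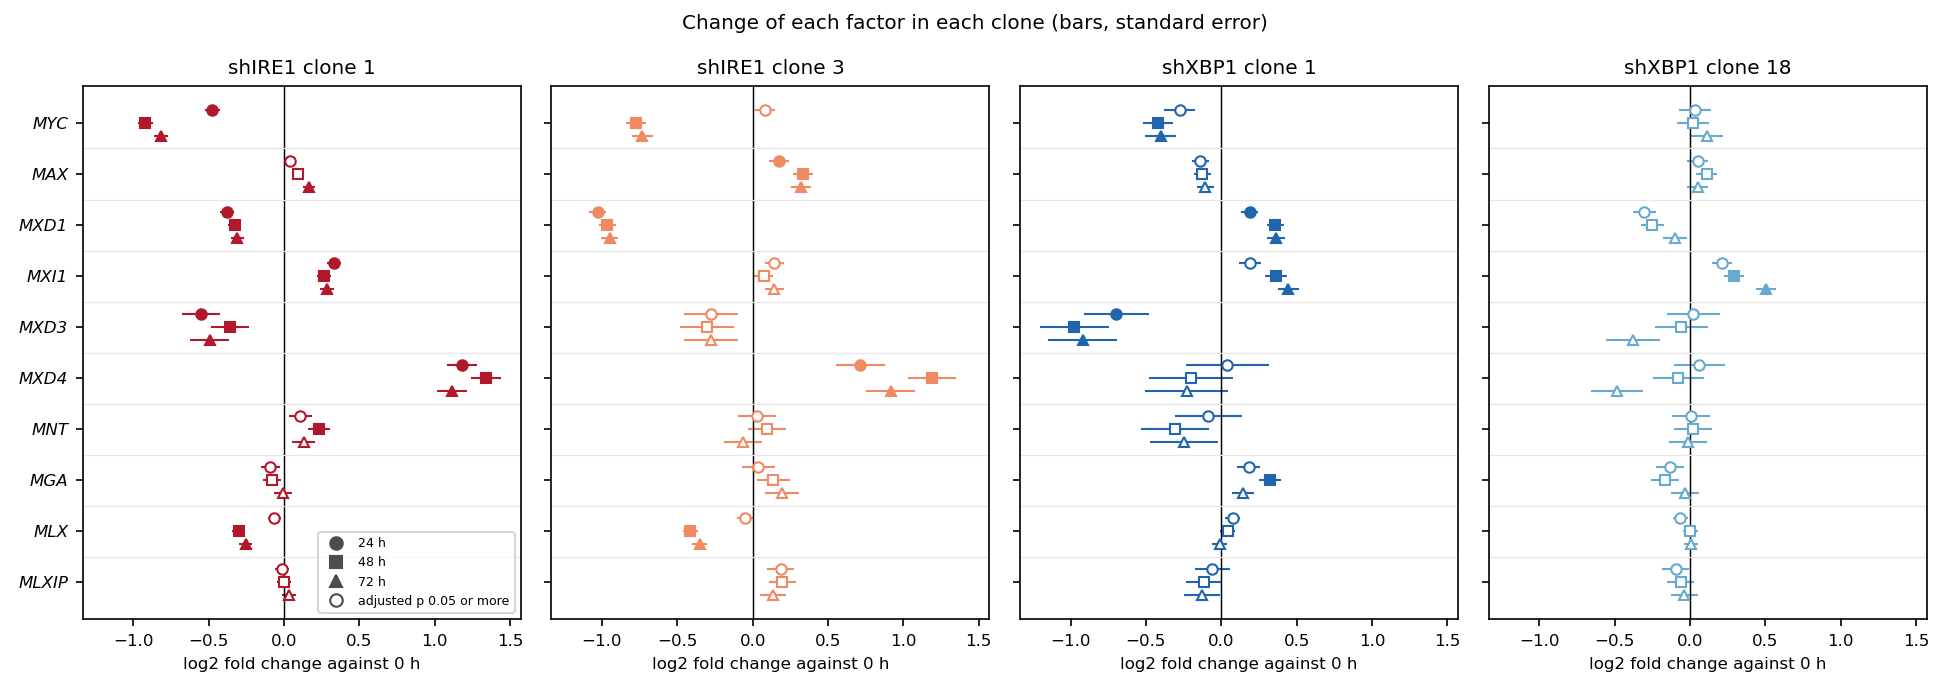
Log2 fold change against 0 h of each member at 24 h (circles), 48 h (squares) and 72 h (triangles), with 1 panel per clone and bars of 1 standard error. Filled symbols passed the edgeR test at 0.05. MYC, MXD1 and MLX lie below 0 and MXD4 above 0 in both shIRE1 clones at 48 and 72 h, and in shXBP1 clone 18 only MXI1 has filled symbols.

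MYC fell in both shIRE1 clones, at different times. In shIRE1 clone 1 it stood at 1639, 1766 and 1771 CPM at 0 h, at 1186, 1303 and 1275 at 24 h, at 979, 915 and 846 at 48 h and at 1007, 984 and 962 at 72 h. All 9 Dox libraries lay below all 3 untreated ones. The log2 fold change was -0.48 ± 0.05 at 24 h (adjusted p = 7.9e-08, edgeR), -0.92 ± 0.05 at 48 h (5.2e-12) and -0.82 ± 0.05 at 72 h (3.1e-11). Clone 3 differed: its 0 h libraries held 1400, 1248 and 1350 CPM and the 24 h libraries 1288, 1531 and 1477, which overlapped. The libraries then dropped to 809, 773 and 814 CPM at 48 h and 835, 860 and 774 at 72 h, all below the untreated ones. Accordingly, MYC had changed by 0.08 ± 0.07 at 24 h (adjusted p = 0.35), or by 0.14 (0.075) without the 24 h library that stood apart, and by -0.77 ± 0.07 at 48 h (1e-07) and -0.73 ± 0.07 at 72 h (2e-07). The difference between the clones at 24 h was itself called (-0.56 ± 0.13, adjusted p = 0.00085), at 48 h (-0.16, 0.37) and 72 h (-0.10, 0.63) it was not.

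From 24 to 48 h MYC fell in shIRE1 clone 1 (-0.44, adjusted p = 1.2e-06) and in clone 3 (-0.85, 1.5e-07), in a step for which 2 of the 10 members were called in clone 1 (30.3% of all genes) and 3 in clone 3 (34.6%). MLX fell in the same step (-0.24, 0.00028, and -0.36, 4.7e-05), and MXD4 rose by 0.48 in clone 3 (0.026). From 48 to 72 h 0 members were called in either shIRE1 clone (0.869% and 0.936% of all genes; 0.424% were lower in clone 3), and MYC moved by 0.10 ± 0.05 and 0.04 ± 0.07. The MXD4 step in clone 3 was lost without the first 24 h library (0.38, adjusted p = 0.096) and without any 1 of the 48 h libraries. In the shXBP1 clones 0 members were called between successive times; 0% of all genes were from 24 to 48 h in both, and 0.012% (clone 1, all higher) and 0% from 48 to 72 h.

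In shXBP1 clone 1 MYC fell by less. Its untreated libraries held 1947, 1560 and 1564 CPM, the first well above the others, against 1288, 1606 and 1396 at 24 h, 1406, 1179 and 1249 at 48 h and 1330, 1266 and 1306 at 72 h. The 24 h libraries overlapped with 0 h and the later ones lay below all 3. The log2 fold change was -0.28 ± 0.10 at 24 h (adjusted p = 0.063), -0.42 ± 0.10 at 48 h (0.0088) and -0.40 ± 0.10 at 72 h (0.01); the 72 h call was lost without the second 72 h library (-0.37, 0.054), and the 24 h value was called without the second 24 h library (-0.37, 0.021). MYC started lowest in shXBP1 clone 18, at 1034, 967 and 964 CPM, and no change passed the test. Its Dox libraries held 914, 1089 and 1049 CPM at 24 h, 1001, 978 and 1049 at 48 h and 1004, 900 and 1302 at 72 h, where the highest was the library that stood apart. The changes were 0.03, 0.02 and 0.11 with standard errors of 0.11, and the 72 h value was -0.05 without that library.

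MXD4, a repressor that takes over MAX when cells stop dividing, showed the largest rise among the members in the shIRE1 clones. It went from 11.2, 13.6 and 15.3 CPM at 0 h in shIRE1 clone 1 to 30.1, 32 and 30.0 at 24 h, 37.1, 34.6 and 30.1 at 48 h and 32.4, 28.9 and 26.2 at 72 h. In clone 3 it went from 20.8, 18.9 and 24.9 CPM to 30.5, 38.1 and 39.2 at 24 h, 49.5, 50.8 and 51.2 at 48 h and 45.4, 49.9 and 29.7 at 72 h. All 18 Dox libraries of the shIRE1 clones lay above the untreated libraries of their clone. On the log2 scale clone 1 changed by 1.18 ± 0.10, 1.34 ± 0.10 and 1.11 ± 0.10, with adjusted p-values of 1.1e-08 or lower, and clone 3 by 0.71 ± 0.16, 1.19 ± 0.16 and 0.92 ± 0.16, with 0.0021 or lower. At 24 h the change in clone 3 was 0.81 (0.0013) without the library that stood apart, and 0.38 (0.001) with an offset by GC content. In the shXBP1 clones no change of MXD4 passed the test. Clone 1 spread widely, from 15.6 to 29.4 CPM at 0 h and from 15.2 to 29.7 at 24 h. Clone 18 held 28.9, 25.7 and 28.2 CPM at 0 h and 24.6, 17.5 and 17 at 72 h, all 3 below 0 h. That change was -0.49 ± 0.17 (adjusted p = 0.089), or -0.38 (0.22) without the library that stood apart. It was called without the filter (-0.48, 0.0002) and by DESeq2 (-0.48, 0.035). Without the first 72 h library (-0.68, 0.016) or the first 24 h library (-0.48, 0.046) it was called as well.

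The promoter of MXD4 holds the E-box that MYC and MXD dimers share, and is shown with those of MNT and MLX because these were the only ones of 9 members with a window that held one. Promoters were the RefSeq windows on GRCh38.p14 from 250 bases before to 50 after each start site, in which MYC had no entry. CACGTG, which reads the same on both strands, was found in 2548 of 35116 promoter windows (7.26%) and for 2396 of 27305 genes (8.77%). Capitals mark the motif, written 5′ to 3′ on the strand of the gene.
MXD4, chr4:2262325-2262359, minus strand: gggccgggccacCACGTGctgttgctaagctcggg
MNT, chr17:2401231-2401270, minus strand: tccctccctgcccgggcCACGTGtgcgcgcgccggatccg
MLX, chr17:42567033-42567072, plus strand: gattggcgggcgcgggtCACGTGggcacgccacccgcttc
The motif began 238 bases before the start site of MXD4, 193 before that of MNT and 50 before that of MLX. The 3 genes with the motif did not move alike: in the shIRE1 clones at 48 h MXD4 rose, MLX fell and MNT changed by 0.23 and 0.09.

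MXD1, the founding antagonist of MYC and a gene induced in many differentiating cells, moved in opposite directions after silencing of IRE1 and in shXBP1 clone 1. It fell most in shIRE1 clone 3, from 125, 115 and 113 CPM to 59.7, 58.5 and 57.6 at 24 h, and stayed between 59.6 and 66.9 CPM at 48 and 72 h. In shIRE1 clone 1 it fell from 78.2, 79.1 and 78.5 CPM to 60.6, 59.7 and 63.3 at 24 h and stayed between 60.4 and 65.5. The untreated clones differed (-0.60 ± 0.06 for clone 1 minus clone 3, adjusted p = 1.4e-10), and the Dox libraries of both reached nearly the same level. Clone 3 changed by -1.03, -0.96 and -0.95 on the log2 scale, with adjusted p-values of 1.2e-09 or lower, and clone 1 by -0.38, -0.33 and -0.31, with 7.7e-06 or lower. In shXBP1 clone 1 MXD1 instead rose, from 70.1, 71.9 and 73.2 CPM to 89.0, 79.6 and 82.9 at 24 h, 90.7, 101 and 87.9 at 48 h and 92.5, 95.5 and 93.7 at 72 h. All 9 Dox libraries lay above all 3 untreated ones, and the changes were 0.19 ± 0.06 (adjusted p = 0.031), 0.36 ± 0.06 (0.00086) and 0.36 ± 0.06 (0.00069). The 24 h call was lost when either of the first 2 untreated libraries or the first or the third 24 h library was left out (0.16 to 0.21).

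In shXBP1 clone 18 no change of MXD1 passed the test, and the values lay below 0. Its libraries held 88.0, 93.9 and 88.5 CPM at 0 h, 80.1, 71.6 and 68.8 at 24 h, 76.4, 76.3 and 76.0 at 48 h and 78.2, 78.5 and 95.6 at 72 h, and the last value came from the library that stood apart. The 24 and 48 h libraries lay below all untreated ones, and the changes were -0.30 ± 0.08, -0.25 ± 0.08 and -0.10 ± 0.08 (adjusted p = 0.076, 0.079 and 0.44). Without that library the first 2 were called (-0.30, adjusted p = 0.0059, and -0.25, 0.0093) and the third was -0.20 (0.075). The 24 h value was also called in edgeR without the filter, with only the 6 libraries compared, with the offset by GC content and with all 48 libraries (-0.28 to -0.33, 0.0012 to 0.029). DESeq2 called it too (-0.30, 0.02). At 48 h the 6 libraries, the offset and all 48 libraries gave a call (-0.25 to -0.27, 0.0014 to 0.013). RLE size factors, limma and the replicate block gave none. The difference between the shXBP1 clones was called at every time (0.51, 0.63 and 0.49, adjusted p from 9.3e-07 to 4.2e-05).

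MXI1, a further MXD-type antagonist, rose in 3 of the 4 clones, with smaller values that did not pass the test in shIRE1 clone 3. It rose in shIRE1 clone 1, from 83.4, 77.9 and 76.0 CPM to 102, 101 and 98.0 at 24 h, with changes of 0.33, 0.27 and 0.28 over the 3 times (adjusted p from 7.9e-06 to 8e-05). The untreated libraries of shIRE1 clone 3 spread from 79.3 to 95.3 CPM, the Dox libraries from 92.8 to 103, and changes of 0.14, 0.07 and 0.14 did not pass (0.058 to 0.32). Without the first untreated library they were called at 24 h (0.20, adjusted p = 0.018) and 72 h (0.19, 0.014), and with an offset by GC content at all 3 times (0.25, 0.20 and 0.22). The 72 h value was also called with only the 6 libraries compared (0.19, 0.047), with all 48 libraries in the fit (0.16, 0.034) and by limma (0.17, 0.031). From 54.3, 63.7 and 62.4 CPM in shXBP1 clone 1 it went to 81.5, 84.6 and 84.3 at 72 h. There the change was 0.19 at 24 h (0.068), 0.36 at 48 h (0.003) and 0.45 at 72 h (0.00073). In shXBP1 clone 18 it was the only member called, going from 51.7, 57.5 and 57.5 CPM to 69.9, 72.0 and 63.6 at 48 h (0.29 ± 0.07, adjusted p = 0.023; 2.28% of all genes were higher) and 75.3, 76.8 and 84.5 at 72 h (0.50 ± 0.07, 0.00041). All 9 Dox libraries of each shXBP1 clone lay above their untreated libraries. The 72 h value was 0.46 (0.00044) without the library that stood apart; the 48 h call was lost without the first or second library at 0 h or at 48 h (0.26 to 0.32).

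MXD3, an antagonist that is expressed in dividing cells, was the member with the fewest counts. It fell in shIRE1 clone 1, from 5.24, 4.87 and 5.78 CPM to 3.69, 4.04 and 3.19 at 24 h, with changes of -0.55 ± 0.13 (adjusted p = 0.00091), -0.36 ± 0.12 (0.017) and -0.49 ± 0.13 (0.0027). The 48 h call was lost without the third untreated library (-0.29, 0.075), the second 48 h library (-0.33, 0.058) or the third (-0.29, 0.068). Changes of -0.28, -0.30 and -0.28 in shIRE1 clone 3, with standard errors of 0.18, did not pass, except without the second 72 h library at 72 h (-0.46, 0.048) and without the third at 48 h (-0.31, 0.029). Untreated libraries of shXBP1 clone 1 ranged from 3.77 to 7.34 CPM, and the changes were -0.70 ± 0.22 (0.034), -0.97 ± 0.23 (0.0076) and -0.92 ± 0.23 (0.0092). The 24 h call was lost when any 1 of 8 libraries was left out (-0.73 to -0.42, adjusted p from 0.051 to 0.16), with the smallest value without the first untreated library, the highest, and at 72 h the change was -0.82 (0.052) without the third 72 h library. No change passed in shXBP1 clone 18. With an offset by GC content (described with the GC content of the members), the changes in shXBP1 clone 1 were -0.27 (0.082), -0.38 (0.03) and -0.32 (0.052), and those in shIRE1 clone 3 were called at -0.70, -0.88 and -0.61. MXD3 shares its strand with the overlapping RAB24 in GENCODE 44 (GRCh38), so reads of the overlap may be counted to either gene.

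MNT, the broadly expressed antagonist, held 22.6 to 49.8 CPM over the 48 libraries, the highest in the first untreated library of shXBP1 clone 1. A single change passed, 0.23 ± 0.07 in shIRE1 clone 1 at 48 h (adjusted p = 0.011), where 23.0, 24.1 and 25.3 CPM became 30.5, 28.3 and 26.2. It was lost without the first 48 h library (0.17, 0.07) and with the offset by GC content (0.06, 0.35).

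MAX, the shared partner of MYC, the MXD proteins, MNT and MGA, rose in shIRE1 clone 3. It held 75.1, 63.2 and 67.4 CPM at 0 h, 75.2, 77.3 and 83.6 at 24 h, 90.0, 88.2 and 87.8 at 48 h and 87.8, 92.3 and 83.4 at 72 h. All 9 Dox libraries lay above all untreated ones, by little at 24 h. The changes were 0.17 ± 0.07 (adjusted p = 0.046), 0.33 ± 0.07 (0.00052) and 0.32 ± 0.07 (0.00077), and the 24 h value missed the threshold when 1 of 8 libraries was left out in turn (0.11 to 0.18). In shIRE1 clone 1 it went from 72.1, 78.0 and 78.4 CPM to 85.9, 87.2 and 84.4 at 72 h, and only that time was called (0.16 ± 0.04, 0.002). In the shXBP1 clones no change of MAX passed. The 24 and 72 h libraries of shXBP1 clone 1 nonetheless lay below its 0 h libraries (-0.14, adjusted p = 0.082, and -0.11, 0.16).

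MLX, the MAX-like partner of MXD1, MXD4, MNT and MLXIP, fell late in both shIRE1 clones and showed little spread. In clone 1 it held 106, 107 and 105 CPM at 0 h, 98.0, 106 and 104 at 24 h, 84.7, 86.7 and 87.2 at 48 h and 85.0, 91.4 and 91.6 at 72 h. In clone 3 it held 106, 102 and 102 CPM at 0 h, 93.6, 105 and 106 at 24 h, 79.8, 79.2 and 80.0 at 48 h and 82.8, 82.8 and 84.3 at 72 h. The 24 h libraries overlapped with 0 h in both clones, and all later ones lay below. The change was -0.06 and -0.05 at 24 h (adjusted p = 0.2 and 0.43), -0.30 and -0.41 at 48 h (4.6e-06 and 3.9e-06) and -0.25 and -0.35 at 72 h (3.9e-05 and 2.3e-05). In the shXBP1 clones its libraries held 103 to 118 CPM and no change passed. MLX overlaps PSMC3IP on the opposite strand in GENCODE 44, and whether the counting used strand is not given in the sources used here.

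MLXIP, which pairs with MLX and drives TXNIP when glucose is abundant, was not called at any time in any clone, with levels of 84.8 to 141 CPM over all libraries. In shIRE1 clone 3 it changed by 0.19 at 24 h (adjusted p = 0.098), and by 0.27 (0.019) without the library that stood apart. At 48 h in that clone it changed by 0.20 (0.066), a value that was called without that library or without the third 72 h library (0.20 and 0.18), and the 72 h value was called without the latter (0.21). With an offset by GC content the values in clone 3 were -0.0069, -0.0081 and 0.039, and MLXIP was called lower in shIRE1 clone 1 at -0.15 (0.0014), -0.16 (0.00061) and -0.10 (0.032). TXNIP, the better known target of the MLXIP and MLX dimer, rose slightly in shIRE1 clone 1 (0.13, 0.11 and 0.17) and fell in clone 3 (-0.55, -0.80 and -0.43) and in shXBP1 clone 1 at 24 and 48 h (-0.25 and -0.39), all called. ARRDC4, a second such target, did not pass the filter on low counts.

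MGA, the MAX partner of a Polycomb complex, held 111 to 197 CPM and was called once, in shXBP1 clone 1 at 48 h, where 127, 149 and 149 CPM became 166, 197 and 175 (0.32 ± 0.07, adjusted p = 0.0071). At 24 h in shIRE1 clone 1 it was also called when the first 24 h library was left out (-0.19, 0.0019). Of the other subunits of that complex (10 genes) several changed in the shIRE1 clones: 8, 5 and 6 of them were lower at 24, 48 and 72 h in clone 1 (29%, 31.5% and 31.1% of all genes were) and 4, 4 and 4 in clone 3 (23.3%, 31.6% and 30.5%), where 1, 4 and 4 were higher (22.8%, 31.6% and 29.7% of all genes were). PCGF6, the subunit that sets this complex apart from other Polycomb complexes, changed by -0.77 in clone 1 and -1.55 in clone 3 at 72 h. CBX3, a reader of histone H3 lysine methylation, changed by -0.88 and -0.76, YAF2 by -0.44 and -0.74, and TFDP2, a dimer partner of E2F factors, by 1.07 and 0.89, all called.

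The change after IRE1 silencing minus that after XBP1 silencing, each averaged over both clones, was tested in a joint fit of all 48 libraries. The error of this test is the spread between libraries, not between clones, so the p-values hold for these clones only. Clones of the same construct differed: at 48 h MYC changed by -0.42 in shXBP1 clone 1 and 0.02 in clone 18, and MXD1 by 0.36 and -0.25. At 24 h 3 of the 10 members differed (38.7% of all genes did), at 48 h 6 (56.9%) and at 72 h 6 (55.3%). MYC did not differ at 24 h beyond its error (-0.08 ± 0.09, adjusted p = 0.5) and was lower after IRE1 silencing at 48 h (-0.65 ± 0.09, 7e-08) and 72 h (-0.63 ± 0.09, 1.5e-07). MXD4 was higher at all 3 times (0.89, 1.40 and 1.37, each ± 0.21), MXD1 was lower (-0.65, -0.71 and -0.76, each ± 0.06), and MAX was higher (0.14, 0.22 and 0.27, each ± 0.06). MLX was lower at 48 and 72 h (-0.39 and -0.30, each ± 0.04), and MXI1 rose less after IRE1 than after XBP1 silencing (-0.16 ± 0.06 at 48 h, adjusted p = 0.029, and -0.26 ± 0.06 at 72 h, 0.00069). No difference was called for MXD3, MNT, MLXIP and MGA. The 24 h call of MAX (adjusted p = 0.036) was lost when any 1 of 27 libraries was left out (0.11 to 0.14), and the 48 h call of MXI1 for 7 libraries (-0.15 to -0.13).

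**Figure D3:**
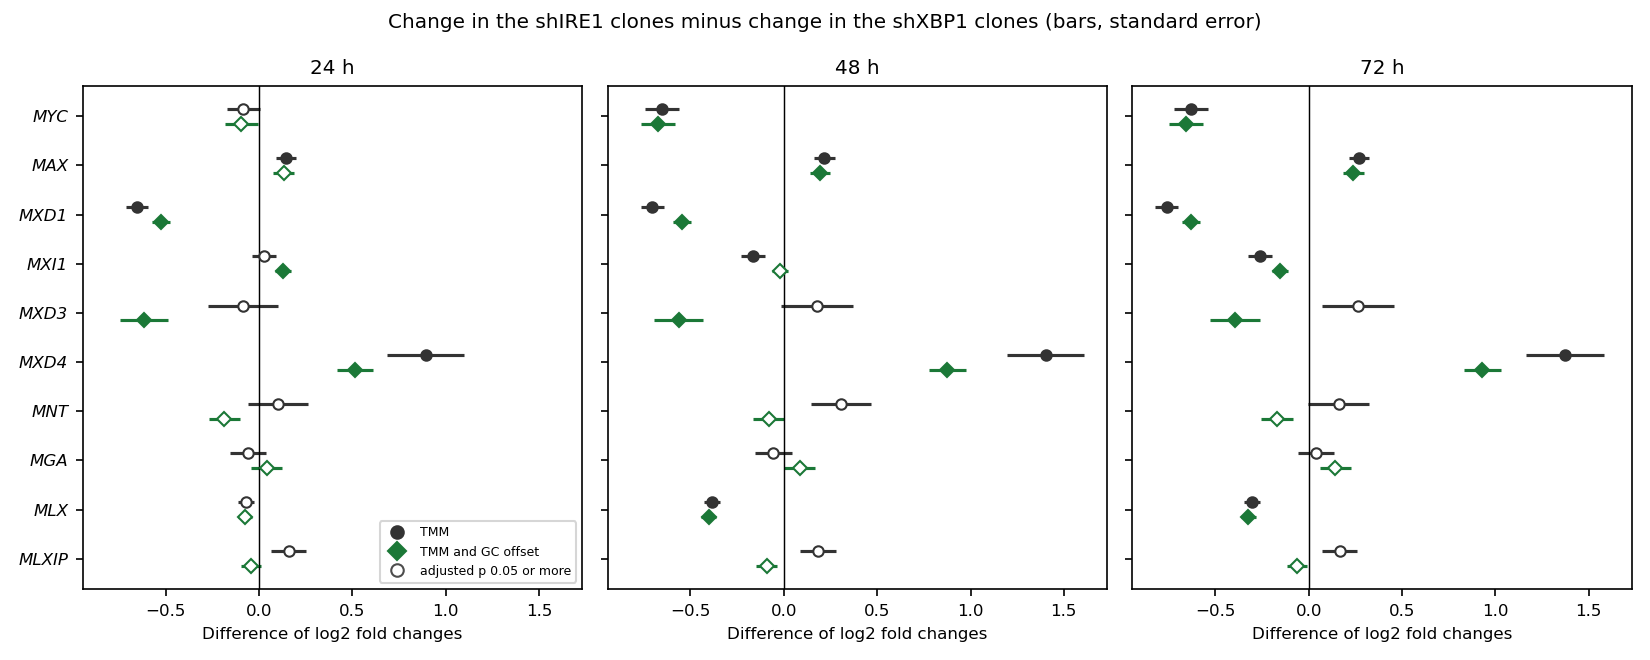
Change against 0 h in the shIRE1 clones minus that in the shXBP1 clones (log2, bars of 1 standard error) for each member at 24, 48 and 72 h, with TMM scaling (circles) and with an added offset by GC content (diamonds); open symbols did not pass the test. With TMM scaling MXD4 lies highest (0.89 to 1.40) and MXD1 lowest (-0.65 to -0.76), and MYC is near 0 at 24 h; the offset moves MXD4 towards 0 and MXD3 below 0.

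Taken clone pair by clone pair, MXD4 at 24 h differed by 0.66 ± 0.29 between shIRE1 clone 3 and shXBP1 clone 18. This pair was not called (adjusted p = 0.087). The 24 h change of MXD4 in shIRE1 clone 1 minus that in clone 3 was 0.47 and was not called. With the offset by GC content it was called (0.64, adjusted p = 0.00029). MAX at 24 h was not called in either pair (0.16, 0.13 and 0.13, 0.23 as value and adjusted p), nor was MXI1 at 48 h (-0.12, 0.32 and -0.21, 0.055). At 72 h MXI1 lost its call in the pair of clones 1 (-0.18, 0.11). In that pair 2 further members were called, MLX at 24 h (-0.16, 0.043) and MGA at 48 h (-0.42, 0.013). MYC, MXD1 and MLX at 48 and 72 h kept their calls in both pairs.

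Set against its antagonists, MYC was lower at 48 and 72 h than at 0 h in every clone but shXBP1 clone 18. The ratio of MYC to the summed level per kilobase of MXD1, MXD3, MXD4, MXI1 and MNT was 9.23 ± 0.46 (SD, n = 3) at 0 h in shIRE1 clone 1 and 5.95 ± 0.28, 4.29 ± 0.21 and 4.73 ± 0.12 at the later times. In shIRE1 clone 3 it was 5.74 ± 0.21, then 6.61 ± 0.49, 3.48 ± 0.06 and 3.67 ± 0.01. For shXBP1 clone 1 it was 9.43 ± 0.47, then 7.47 ± 0.48, 6.52 ± 0.58 and 6.40 ± 0.13. For shXBP1 clone 18 it stayed between 5.49 and 5.63. The summed antagonists went from 50.3 to between 55.9 and 57.1 CPM per kb in shIRE1 clone 1, from 62.4 to between 58.2 and 61.8 in clone 3 and from 48.1 to 51.3, 52.7 and 54.6 in shXBP1 clone 1. These ratios are descriptions of mRNA and carry no test.

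Clones of the same construct differed before Dox. Between the untreated shIRE1 clones, 4 of the 10 members differed (40.6% of all genes did): MYC was higher in clone 1 (0.35 ± 0.09, adjusted p = 0.0016) and MXD1 (-0.60), MXD4 (-0.71) and MXI1 (-0.17) were lower. The MXD4 call was lost without the third untreated library of clone 3 (-0.59, 0.056), and that of MXI1 (adjusted p = 0.036) when any 1 of 15 libraries was left out. Between the untreated shXBP1 clones, 6 differed (51.3%): MYC was higher in clone 1 (0.77 ± 0.09, 4e-09), as were MXD3 (0.57), MNT (0.38), MLXIP (0.25) and MAX (0.18), and MXD1 was lower (-0.34). Without the first untreated library of shXBP1 clone 1, the calls of MXD3 (0.33, 0.17), MNT (0.09, 0.66) and MLXIP (0.18, 0.16 without it or 0.25, 0.055 without the second untreated library of clone 18) were lost. The change after Dox also differed between clones. At 24, 48 and 72 h, 2, 2 and 1 members differed between the shIRE1 clones (28.2%, 30.8% and 27.5% of all genes) and 1, 5 and 2 between the shXBP1 clones (17.1%, 24.1% and 24.6%). MXD1 was called in all 6 of these comparisons.

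Regulators of MYC transcription in plasma cells, a list of 4 genes, changed in the shIRE1 clones. IRF4, which binds and activates MYC in myeloma, fell in clone 1 (-0.40 at 24 h and -1.17 at 48 h) and clone 3 (-0.53 and -2.19), and rose slightly in shXBP1 clone 1 (0.14 to 0.16). PRDM1, a repressor of MYC in normal plasma cell differentiation, fell too (-1.01 and -0.84 at 48 h). IKZF1 rose (0.30 and 0.84 at 72 h), and IKZF3 fell in clone 3 alone of the shIRE1 clones (-0.26 at 72 h, against 0.05, adjusted p = 0.28, in clone 1). In shIRE1 clone 3 at 24 h IRF4 had fallen (adjusted p = 1.2e-06, edgeR) and the MYC libraries overlapped with 0 h. In clone 1 at 24 h IRF4 had changed by -0.40 and MYC by -0.48. Any link between these changes was not tested. PVT1, the long non-coding RNA next to MYC, fell in shIRE1 clone 1 at 24 h (-0.13, adjusted p = 0.041) and rose there at 48 and 72 h (0.16 and 0.18). It rose in clone 3 at all 3 times (0.20, 0.56 and 0.66) and fell in shXBP1 clone 1 at 48 and 72 h (-0.20 and -0.23). The paralogue MYCL was called once in the shIRE1 clones, at 48 h in clone 1 (-0.36); MYCN and MLXIPL did not pass the filter.

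Of the cofactors that MYC brings to chromatin (15 genes), more were lower than higher in shIRE1 clone 1. There 11, 12 and 11 were lower at 24, 48 and 72 h (29%, 31.5% and 31.1% of all genes were). In clone 3, 2, 4 and 5 were lower (23.3%, 31.6% and 30.5% of all genes) and 5, 6 and 5 higher (22.8%, 31.6% and 29.7%). In shXBP1 clone 1, 9, 9 and 10 were lower (12.8%, 15.5% and 16.8%), and whether clones differ in these counts was not tested. TRRAP, the scaffold of the acetyltransferase complexes, and KAT2A, an acetyltransferase, rose in both shIRE1 clones at 72 h (0.45 and 0.90, 0.26 and 1.04), whereas the acetyltransferase KAT5 (-0.60 and -0.43) fell. A list of 14 genes held corepressors that MXD proteins and MNT recruit, and also ZBTB17 (MIZ1), through which MYC represses genes. Of these 14, 5 rose and 6 fell in clone 1 at 72 h (32.5% and 31.1% of all genes did). In clone 3, 6 rose and 4 fell (29.7% and 30.5%). SUDS3, a subunit of the SIN3 complex, fell (-0.68 and -0.76), as did HDAC2, a histone deacetylase (-0.62 and -0.80). ARID4B, a further SIN3 subunit, rose (0.75 and 0.30), as did ZBTB17 (0.48 and 0.46). Of 16 genes for MYC protein turnover, 10 and 9 were lower at 72 h (31.1% and 30.5% of all genes) and 3 and 4 higher (32.5% and 29.7%). The kinases PLK1 (-1.79 and -1.37) and AURKA (-1.34 and -1.42), CIP2A (-1.15 and -1.21), an inhibitor of the phosphatase that destabilizes MYC, and the ubiquitin ligase subunit SKP2 (-0.58 and -1.08) led this list, and all of them are also genes of dividing cells. No protein was measured in these libraries.

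Genes known to be activated by MYC were lower in most cases in shIRE1 clone 1. Of 36 listed genes 35 were tested. In shIRE1 clone 1, 28 were lower at each time (29%, 31.5% and 31.1% of all genes were) with medians of -0.46, -0.46 and -0.43. In clone 3, 13, 19 and 19 were lower (23.3%, 31.6% and 30.5% of all genes) and 9, 8 and 9 higher (22.8%, 31.6% and 29.7%), with medians of -0.06, -0.20 and -0.25. In shXBP1 clone 1, 19, 21 and 24 were lower (12.8%, 15.5% and 16.8% of all genes), with medians of -0.32, -0.26 and -0.33. In shXBP1 clone 18, 0, 2 and 2 were lower (1.3%, 3.5% and 5.55% of all genes). The median over all genes lay between -0.01 and 0.04 in these comparisons. Whether 2 clones differ in these counts was not tested. PAICS, an enzyme of purine synthesis (-1.33 and -1.32 at 72 h), E2F1, which drives entry into S phase (-0.90 and -1.55), SHMT2, the mitochondrial serine hydroxymethyltransferase (-0.53 and -1.54), and LDHA, lactate dehydrogenase A (-1.13 and -0.75), fell in both shIRE1 clones. In clone 3 LDHA changed by -0.11 at 24 h (adjusted p = 0.1) and -0.92 at 48 h, and LDHA rose in shXBP1 clone 18 at all 3 times (0.38, 0.46 and 0.40). PAICS and E2F1 in clone 3 were lower at 24 h (-1.07 and -1.41). The MYC libraries at 24 h overlapped with 0 h in clone 3 and lay below 0 h in shIRE1 clone 1. Whether the changes of the named genes depend on MYC was not tested.

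**Figure D4:**
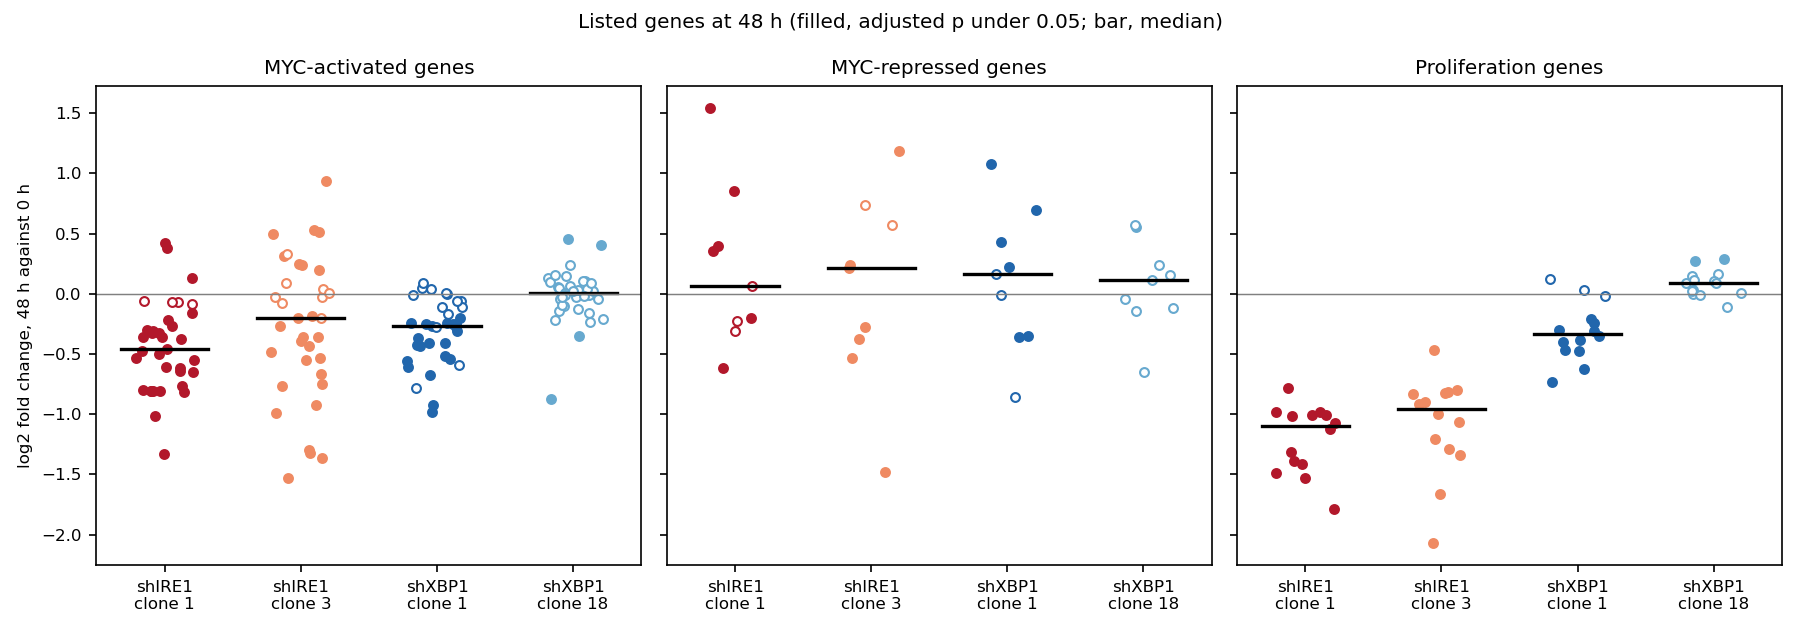
Log2 fold change at 48 h against 0 h of each tested gene in 3 lists, by clone. Each point is 1 gene, filled where the adjusted p was under 0.05, and the bar is the median of the list. All 14 proliferation genes lie below 0 in both shIRE1 clones, and the MYC-activated genes lie mostly below 0 in shIRE1 clone 1 and on both sides of 0 in clone 3.

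The E-box of the members was also present in 17 of the 29 MYC-activated genes with a promoter window. LDHA held it 185 and 87 bases before its start site, and CCNG2, a gene repressed by MYC, 30 bases before it. They are shown because LDHA fell and CCNG2 rose.
LDHA, chr11:18394361-18394400, plus strand: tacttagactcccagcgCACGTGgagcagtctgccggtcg
LDHA, chr11:18394459-18394498, plus strand: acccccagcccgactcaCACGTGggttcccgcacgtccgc
CCNG2, chr4:77157160-77157199, plus strand: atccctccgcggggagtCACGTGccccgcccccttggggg
In shIRE1 clone 1 at 48 h 15 of the 17 genes with the motif and 9 of the 11 tested without it were lower (31.5% of all genes were), and in clone 3 11 of 17 and 4 of 11 (31.6%). Medians at 48 h were -0.47 and -0.37 in clone 1, -0.27 and -0.03 in clone 3 and -0.25 and -0.40 in shXBP1 clone 1 for genes with and without it, so the order was not the same in each clone. These are descriptions with no test.

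Of 9 genes repressed by MYC, 4 were higher and 2 lower in shIRE1 clone 1 at 72 h (32.5% and 31.1% of all genes were). In clone 3, 3 were higher and 4 lower (29.7% and 30.5%), and in shXBP1 clone 1, 4 were higher and 2 lower (16.8% in each direction). CCNG2, an atypical cyclin of resting cells, rose by 1.49, 0.30 and 1.29 in these 3 clones. CDKN1A, which encodes the cell cycle inhibitor p21, rose in the shIRE1 clones (0.74 and 1.01) and fell in shXBP1 clone 1 (-0.38). NDRG1, which is also induced by hypoxia, fell in the shIRE1 clones (-0.73 and -1.45) and rose in both shXBP1 clones (0.48 and 0.54), and NDRG2 fell in the shIRE1 clones (-0.19 and -0.63).

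Proliferation genes were lower in 3 of the 4 clones. All 14 were lower at all 3 times in both shIRE1 clones (29%, 31.5% and 31.1% of all genes in clone 1, 23.3%, 31.6% and 30.5% in clone 3), with medians of -1.10 and -0.96 at 48 h, and 11, 11 and 12 of them in shXBP1 clone 1 (12.8%, 15.5% and 16.8%; medians of -0.41, -0.33 and -0.37). In shXBP1 clone 18, in which no change of MYC passed the test, 0 were lower and 0, 2 and 3 higher (0.291%, 2.28% and 4.41% of all genes were higher). At 24 h CDK1 changed by -1.98 in shIRE1 clone 1 and -2.14 in clone 3, CCNA2 by -1.66 and -1.25, CCNB1 by -1.47 and -1.23 and MCM6 by -1.13 and -1.25, all called. At that time MYC had changed by -0.48 in shIRE1 clone 1 and by 0.08 in clone 3. The part of the proliferation genes in the changes of the members was not tested. In RNA from a whole culture fewer cells of a kind and less RNA per cell cannot be told apart.

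Without the library that stood apart, the counts in shIRE1 clone 3 at 24 h were 3 lower and 7 higher for the MYC cofactors, 16 lower and 8 higher for the MYC-activated genes and 5 lower and 2 higher for the subunits of the MGA complex (24.3% of all genes were lower and 23.6% higher), and all 14 proliferation genes were lower. In shXBP1 clone 18 the MYC-activated genes were lower in 2, 3 and 1 cases (3.33%, 7.16% and 4.48% of all genes), and 1, 0 and 0 proliferation genes were lower and 0, 3 and 3 higher at the 3 times (1.46%, 5.78% and 3.09% of all genes were higher).

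The GC content of the transcripts moved with several members. Within groups, genes of high GC content were counted relatively more in some libraries than in others. Of the 24 libraries in which this slope was positive, MNT lay above its group mean in 23, MXD4 and MLXIP in 22, MYC in 21 and MXD3 in 19, against 4 for MXI1 and MGA and 3 for MXD1. MXD3 (65.6% GC), MXD4 (63.5%), MNT (61.3%) and MLXIP (57.8%) are the members richest in GC, and MXD1 (42.5%), MGA (43.2%) and MXI1 (43.7%) the poorest. Over all genes, the difference between IRE1 and XBP1 silencing at 48 h also rose by 0.31 on the log2 scale per 10% of GC content. An offset by GC content, added after the data were seen, removes any such trend whatever its source. With it MXD4 still differed at all 3 times, by 0.51, 0.88 and 0.93 in place of 0.89, 1.40 and 1.37, and MXD1 by -0.54 and -0.63 in place of -0.71 and -0.76. MYC (-0.67 and -0.66), MLX (-0.40 and -0.32) and MAX (0.19 and 0.24) hardly moved. Their transcripts hold 48.8%, 49.9% and 49.4% GC, between the poor and rich members, where the offset changes little. MYC still followed the slope of the libraries within groups (r = 0.761), so its steady value does not show that it is free of this trend. MXI1 kept its sign at 24 h and was called there (0.13, adjusted p = 0.015, in place of 0.03). It was not called at 48 h (-0.02, 0.72) and kept its direction and call at 72 h (-0.15, 0.0021). MXD3 went from -0.09 to -0.62 at 24 h, from 0.18 to -0.56 at 48 h and from 0.26 to -0.39 at 72 h. Within clones, MXD4 kept its calls (1.13 at 48 h in shIRE1 clone 1, 0.38 at 24 h and 0.79 at 48 h in clone 3), and MXD1 kept its calls in both shIRE1 clones (-0.29 and -0.82 at 48 h).

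**Figure D5:**
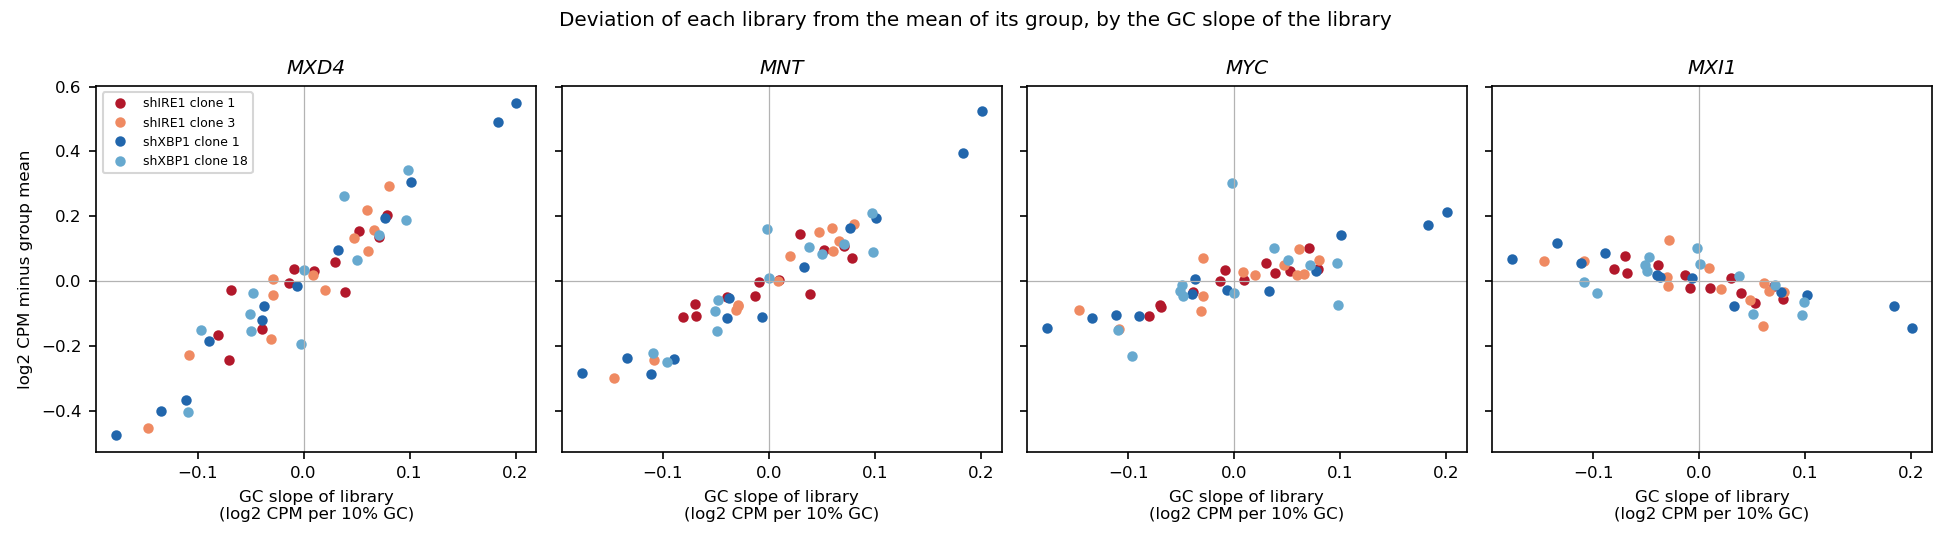
Deviation of each of the 48 libraries from the mean of its group (log2 CPM) for MXD4, MNT, MYC and MXI1, against the slope of the library's counts on GC content (log2 CPM per 10% GC). Each point is 1 library, coloured by clone. MXD4 and MNT rise along the slope, MYC rises less and MXI1 falls.

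Over the 16 group means of log2 CPM, among 12009 genes with a mean above 1, the genes whose pattern was most like that of MYC were HMGA1 (Pearson's r = 0.957), MRPL9 (0.952), NELFE (0.946), AC012640.4 (0.937) and TMEM14B (0.936). HMGA1 encodes a chromatin protein and NELFE a subunit of the negative elongation factor. Of the other members MLX was nearest (0.665, or 0.888 without the 4 groups of shXBP1 clone 18) and MXD4 was the most opposed (-0.734, or -0.80 without them). The points share clones and untreated groups, and the values describe these groups only.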

How the data were processed

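RNA of AMO1 cells was sequenced by the authors as stranded poly(A) libraries, and per the labels the reads were aligned with GSNAP (version 2013-10-10) to GRCh37. The counting program and its use of strand are not given in the sources used here. The authors deposited a table of gene counts (58302 genes), and a table of log2 CPM values (18401 genes) that was used for the limma alternative and to check that edgeR's log2 CPM, prior count 2, gives the deposited log2 values. No column of another sample was present.

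Counts were filtered with filterByExpr (minimum count 10, total 15), scaled by TMM and tested in edgeR 4.0.16 (R 4.3.3), in 1 fit of 12 libraries per clone and 1 joint fit of 48 libraries for differences between clones and targets; 17154, 17204, 16603 and 16860 genes were tested in shIRE1 clones 1 and 3 and shXBP1 clones 1 and 18, and 18445 jointly. The quasi-likelihood test gave p-values, adjusted by Benjamini-Hochberg over every gene of the fit and called at 0.05, and the standard error is the absolute log2 fold change over the root of F. The tests were tried on simulated data. Depth was 19177855 to 40767202 counts per library, and intervals cover the spread between libraries only. CPM is a share of a library's counts, and RNA per cell was not measured. CPM per kb used the canonical transcript length of GENCODE 44 (GRCh38), and since the builds differ, coordinates are given only for RefSeq promoters. Within groups, libraries with the same replicate number did not deviate together in every pair (correlations over 0.1 in all 3 pairs were found for shXBP1 clone 1 at 72 h only, 0.652, 0.365 and 0.371), so they share only a number.

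The members and lists were chosen with earlier results of these data known. All 10 members were described in every comparison. From each list up to 4 genes were named, those with the largest mean change at 72 h among genes called in the same direction in both shIRE1 clones, and lists of 4 or fewer were given whole. A gene that this rule names is not reported here. The 5 genes most like MYC were named, besides ERN1 and XBP1. CCNG2 and LDHA promoters were picked after their values were seen. Alternatives were RLE size factors, no filter, DESeq2 1.42.0, limma 3.58.1, all libraries or only 6 in the fit, the replicate number as a block, clone pairs and each library left out. Added after seeing the data were an offset by GC content (medians in 20 bins, with 11966 of 12009 genes, 99.6%, having a GC value) and fits without the libraries that stood apart.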

Additional observations from a re-analysis of the deposited data

Results flagged for a closer look

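The results below were picked out because the change after Dox differed between the 2 silenced genes or between 2 clones of 1 construct, each by a test of the difference itself in the joint edgeR fit with Benjamini-Hochberg adjustment. These tests take the spread between libraries, not between clones, as their error. Single far values were not looked for in groups of 3 libraries.

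Between IRE1 and XBP1 silencing, MXD1 differed by -0.65, -0.71 and -0.76 at 24, 48 and 72 h, MXD4 by 0.89, 1.40 and 1.37, and MAX by 0.14, 0.22 and 0.27. MYC differed by -0.65 and -0.63, MLX by -0.39 and -0.30, and MXI1 by -0.16 and -0.26 at 48 and 72 h.

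Between shIRE1 clone 1 and clone 3, MXD1 differed by 0.65, 0.62 and 0.63 at the 3 times, MYC by -0.56 at 24 h and MAX by -0.25 at 48 h; the MAX value was -0.20 (adjusted p = 0.053) without the second untreated library of clone 3. Between shXBP1 clone 1 and clone 18, MXD1 differed by 0.51, 0.63 and 0.49, and MYC by -0.43 and -0.49 at 48 and 72 h. MAX (-0.22), MGA (0.51) and MXD3 (-0.91) differed at 48 h alone. The 48 h MYC value was -0.34 (adjusted p = 0.058) without the first untreated library of shXBP1 clone 1, the 72 h MYC value was -0.36 (0.022) without both libraries that stood apart, and that of MXD3 at 48 h was lost without the same library or the third 48 h library of clone 18 (-0.72 to -0.67).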

How the results depend on the processing

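RLE size factors left the direction and call of every log2 fold change of a member as they were, and DESeq2 and limma each added 2 calls. The offset by GC content, chosen after seeing the data, added 31 calls with the same sign and ended 8. A further 6 values that were not called without it were called with the opposite sign. These were MLXIP in shIRE1 clone 1 (-0.16 at 48 h and -0.10 at 72 h), MNT in shIRE1 clone 3 (-0.25 at 24 h and -0.24 at 48 h) and MXD3 in the difference between IRE1 and XBP1 silencing (-0.56 at 48 h and -0.39 at 72 h). The offset brought the members called to 5, 9 and 9 at 24, 48 and 72 h in shIRE1 clone 3 (8236, 11096 and 10924 of 17204 genes were called). In shXBP1 clone 1 they came to 6 at 24 h (7746 of 16603 genes), and in clone 18 to 2 and 2 at 24 and 48 h (741 and 2122 of 16860). For the shXBP1 clone difference at 24 h they came to 3 (5003 of 18445). With only the 6 libraries compared, 0 members were called in shXBP1 clone 1 at 24 h and 2 and 3 in clone 18 at 24 and 48 h, against 4, 2 and 2 with all 48 libraries in the fit. Of all genes, 2086 of 16332, 874 of 16262 and 2983 of 15943 were called with the 6 libraries. With all 48 libraries, 5824 and 838 of 18445 genes were called at 24 h in shXBP1 clones 1 and 18. At 48 h in clone 18, fewer genes were called with all 48 libraries than with the 6. Without the filter or with DESeq2, 1 and 2 members were called in clone 18 at 24 and 72 h. Over all genes 562 and 2712 of 33943 were called without the filter, and 549 and 2259 of 58302 with DESeq2. Between shIRE1 clone 3 and shXBP1 clone 18 alone 1 member differed at 24 h (5260 of 18445 genes did). Without both libraries that stood apart 3 differed between the shXBP1 clones at 24 h (3793 of 18774 genes did). The causes were not tested.

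Samples with the same replicate number did not deviate together in every pair. With the replicate number as a block 1 member was called in shXBP1 clone 1 at 24 h (3469 of 16603 genes were). In these fits MAX in shIRE1 clone 3 (0.18, adjusted p = 0.067) and MXD1 in shXBP1 clone 1 (0.19, 0.068) lost their calls at 24 h.

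With 1 library left out at a time, the members called at 24, 48 and 72 h ranged over 5 to 6, 6 to 7 and 7 to 7 in shIRE1 clone 1, 2 to 4, 5 to 7 and 5 to 6 in clone 3, 0 to 4, 5 to 6 and 3 to 4 in shXBP1 clone 1 and 0 to 1, 0 to 2 and 1 to 2 in clone 18. They ranged over 2 to 3, 5 to 7 and 6 to 6 between IRE1 and XBP1 silencing, 2 to 3, 1 to 3 and 1 to 2 between the shIRE1 clones (3 to 6 untreated) and 1 to 3, 3 to 5 and 2 to 3 between the shXBP1 clones (3 to 6 untreated), and over 2 to 4 from 24 to 48 h in shIRE1 clone 3. Shares of all genes are not given beside these ranges, but such shares moved as well, so the ranges are not particular to the members. Without the library that stood apart, 5.78% of all genes were higher and 7.16% lower in shXBP1 clone 18 at 48 h. With it the shares were 2.28% and 3.5%. At 72 h they were 3.09% and 4.48% without it, and 4.41% and 5.55% with it. Of the single log2 fold changes, 7504 kept their call and direction, 76 gained a call and 100 lost one. Depth limited MXD3 most, with 71 counts in its lowest library.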
